A study of Mus musculus with 30 samples.

Results

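The p38 branch of the MAP kinase network and a small heat shock protein at its end were followed through 7 genes of an nCounter panel of 248 target genes. The genes were taken by name: Map2k6, Mapk14, Mapkapk2, Mapkapk5, Mknk1, Rps6ka5 and Hspb1, each 1 row of the deposited signal. RNA came from mouse peritoneal macrophages in 5 groups of 6 C57BL/6 mice aged 12 to 16 weeks. Lipopolysaccharide (LPS), a bacterial wall component sensed by Tlr4, was given to wild-type mice into the peritoneum at 2 mg/kg (WT+LPS), PBS alone was given to others (WT-LPS), and macrophages were harvested 6 h later. The remaining 3 groups, COX-1>COX-2, its counterpart COX-2>COX-1, and Reversa, all received LPS and differ in which cyclooxygenase is made from which gene. As background on these strains, COX-1>COX-2 carries the coding part of Ptgs1 at the Ptgs2 locus, its counterpart carries that of Ptgs2 at the Ptgs1 locus, and Reversa combines both changes. The exchanges are germline alleles and so are carried by every cell type. The exchange groups were measured here with LPS only, so no effect of an exchange at rest was seen.

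In this branch, Map2k6 phosphorylates and activates p38 alpha, the kinase encoded by Mapk14, after stress or Toll-like receptor signals. Active p38 alpha switches on further kinases: Mapkapk2, which phosphorylates the small heat shock protein Hspb1 and proteins that bind AU-rich cytokine mRNAs, the related Mapkapk5, Mknk1, which phosphorylates the cap-binding factor eIF4E, and Rps6ka5, which phosphorylates Creb and histone H3. Hspb1 is a chaperone that also binds actin filaments. In macrophages the pathway is best known for keeping mRNAs of Tnf and other cytokines stable after LPS. The signal measures mRNA, and phosphorylation, the step by which the pathway acts, was not measured.

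Before the levels, the 300-base windows around the transcription starts of 4 of the genes are shown, chosen for their different directions below. As deposited, Hspb1 and Mapkapk2 had higher signal after LPS, Map2k6 and Mapk14 lower. Both rises depended on the scaling of the samples, and the lower signal of Map2k6 was fixed by a filter described below. The windows run from 250 bases before to 50 bases after the start on the gene's strand, from RefSeq on GRCm38.p6. All 7 genes matched, with 11 windows in all, and window 1 is printed. Hspb1 lies at chr5:135887669-135887968 on the plus strand, Mapkapk2 at chr1:131097794-131098093 on the minus strand, Map2k6 at chr11:110398852-110399151 on the plus strand and Mapk14 at chr17:28691092-28691391 on the plus strand. Capitals mark the motifs searched on both strands.
Hspb1: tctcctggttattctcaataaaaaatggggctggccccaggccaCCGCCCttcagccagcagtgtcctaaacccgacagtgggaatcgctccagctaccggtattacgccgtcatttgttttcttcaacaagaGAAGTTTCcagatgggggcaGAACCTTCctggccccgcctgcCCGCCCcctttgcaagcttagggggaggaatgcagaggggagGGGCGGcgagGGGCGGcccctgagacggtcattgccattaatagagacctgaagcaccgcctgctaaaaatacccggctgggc
Mapkapk2: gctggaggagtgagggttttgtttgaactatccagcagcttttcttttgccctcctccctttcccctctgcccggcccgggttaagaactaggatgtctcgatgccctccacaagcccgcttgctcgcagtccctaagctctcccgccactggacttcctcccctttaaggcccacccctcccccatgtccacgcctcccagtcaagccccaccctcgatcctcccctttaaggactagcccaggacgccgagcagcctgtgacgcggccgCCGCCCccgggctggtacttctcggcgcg
Map2k6: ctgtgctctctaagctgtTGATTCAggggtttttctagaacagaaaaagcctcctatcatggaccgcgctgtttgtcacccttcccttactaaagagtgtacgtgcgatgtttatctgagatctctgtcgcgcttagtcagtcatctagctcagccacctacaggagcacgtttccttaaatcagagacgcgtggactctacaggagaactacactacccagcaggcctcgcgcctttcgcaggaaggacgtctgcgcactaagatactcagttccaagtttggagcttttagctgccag
Mapk14: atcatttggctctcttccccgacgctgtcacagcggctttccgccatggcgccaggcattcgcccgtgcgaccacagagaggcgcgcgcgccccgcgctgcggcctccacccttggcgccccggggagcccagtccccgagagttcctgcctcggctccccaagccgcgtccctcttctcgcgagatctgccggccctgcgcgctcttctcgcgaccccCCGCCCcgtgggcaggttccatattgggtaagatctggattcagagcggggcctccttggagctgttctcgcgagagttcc

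The motifs were a heat shock element (GAANNTTC), an AP-1 site (TGANTCA), a CRE (TGACGTCA), an NF-kB site of 10 letters, an ISRE (interferon-stimulated response element) of 10 letters, a TATA box (TATAAA) and a GC box (GGGCGG). The Hspb1 window held 2 heat shock elements, GAAGTTTC at 117 and GAACCTTC at 97 bases before the start, beside 4 GC boxes. A heat shock element occurred in 7.86% of 32851 mouse windows of this length and in no other window of the 7 genes. The printed Map2k6 window held an AP-1 site 232 bases before the start, a motif present in 7.81% of all windows. The printed Mapk14 and Mapkapk2 windows each held 1 GC box, found in 35.66% of all windows. No window of the 7 genes held the CRE (1.79% of all windows) or the NF-kB site (0.41%). The search letters of the heat shock element, AP-1 site and CRE read the same on both strands, and no printed motifs overlapped. These are matches of letters and not sites shown to be bound.

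All samples held macrophage markers, and the exchange labels fitted the cyclooxygenase signals. The summed signal of 8 macrophage markers was 94808 to 127889 in WT-LPS, 34340 to 61334 in WT+LPS, 25046 to 54392 in COX-1>COX-2, 31926 to 45933 in COX-2>COX-1 and 17788 to 42668 in Reversa. Ptgs2 did not exceed 1.76 in COX-1>COX-2, Ptgs1 did not exceed 5.77 in COX-2>COX-1, and both lay above 88 in each of the 5 Reversa samples counted. Total signal was 471534 to 773828 per sample, or an estimated 298381 to 1001557 counts. Reversa samples 55 and 56 differed by a chi-square of 1.22 per gene (p = 0.02), against 21.77 for the next closest of 75 pairs within groups. They were counted as 1 sample, which leaves 5 in Reversa and 29 in all. Lanes were spread over 3 runs with 2 lanes per group in each. Position in the run was fixed for each group and cannot be told apart from it.

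Of the 7 genes, 6 passed the filter on low signal (above 20 in at least 6 samples), as did 202 target genes in all. Mapk14, Mapkapk2, Mknk1 and Rps6ka5 were above 20 in all 29 samples, and Hspb1 in 28. Mapkapk5 never reached 20, with a highest signal of 13.61 in a Reversa sample and group means of 4.80 to 7.70, so its level could not be told from background in any group and it was not tested. Map2k6 passed only through its 6 WT-LPS samples and therefore had to differ from the other groups.

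**Figure D1:**
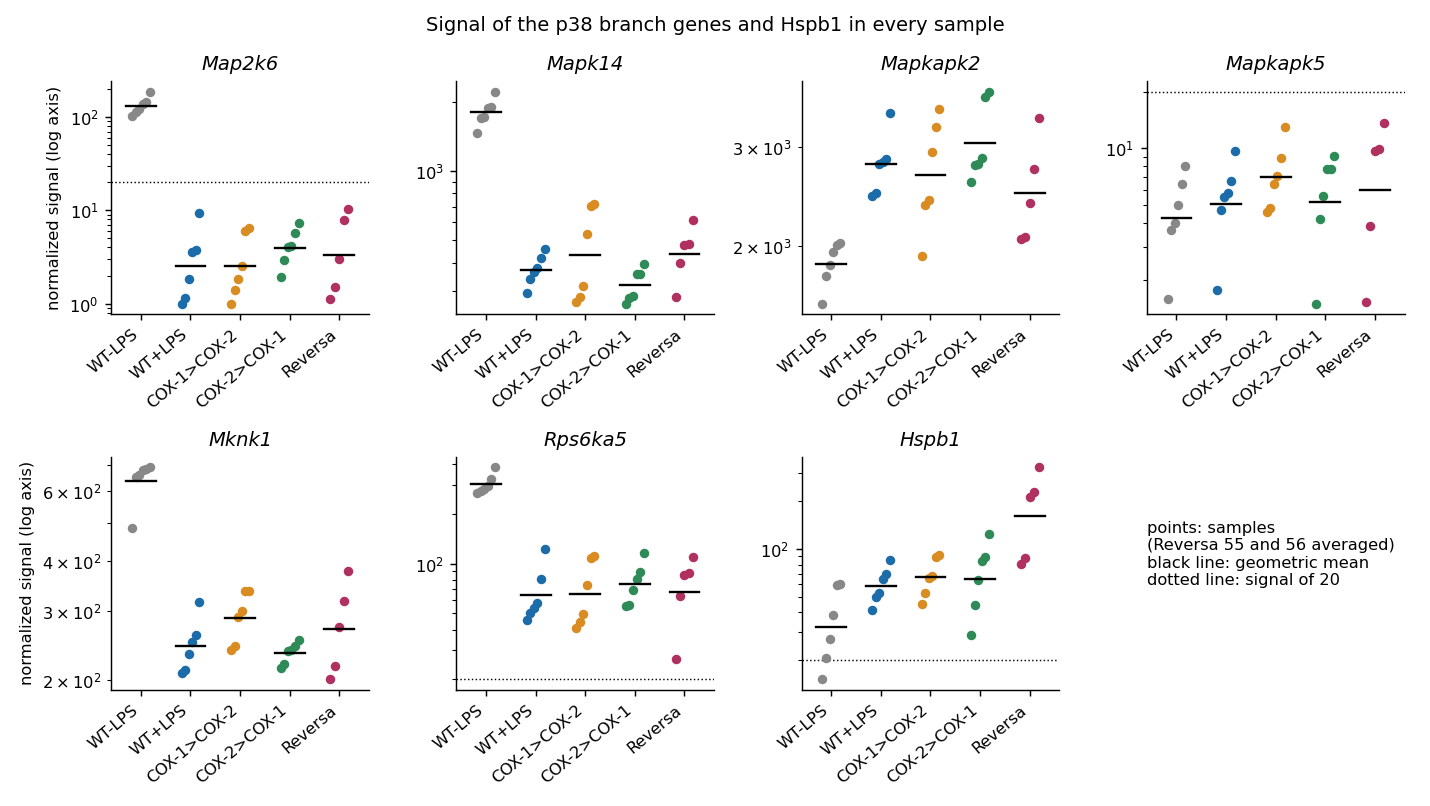
Normalized signal (log axis, a separate range per gene) of the 7 genes in every sample of the 5 groups, with geometric means as black lines. Mapk14, Mknk1 and Rps6ka5 sit highest in all 6 WT-LPS samples, Mapkapk2 has its lowest mean there, Map2k6 lies above the dotted line at 20 in WT-LPS alone, and Hspb1 is highest in 3 Reversa samples.

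As deposited, LPS was followed by a lower signal of the p38 kinase and of 2 of its effector kinases, while Mapkapk2 and Hspb1 were higher. Those 2 rises were close to the median of all genes and did not hold under every scaling. Leaving aside Map2k6, whose lower signal the filter fixed, limma called the other 5 tested genes in WT+LPS against WT-LPS, 3 lower and 2 higher. Over all 202 genes 83.7% were called in this comparison, 49.5% higher and 34.2% lower, so being called was usual here. The group ranges did not overlap for 4 of the 5, against 72.3% of all genes. The median log2 change of all genes was 0.47. In bulk RNA of this kind, fewer cells of a type and less RNA per cell cannot be told apart. Cell markers moved as well: 6 of 8 macrophage markers were called lower, with a median log2 change of -1.45, and their sums (94808 to 127889 without and 34340 to 61334 with LPS) did not overlap. The sum of 4 T or NK cell markers was 236 to 429 without and 480 to 1244 with LPS, that of 2 B cell markers 4446 to 5754 and 2976 to 4111, that of 2 neutrophil markers 59.7 to 228 and 70.3 to 111, and that of 2 mast cell or eosinophil markers 2 to 3.16 and 5.76 to 57.7. Members of 3 of these lists went opposite ways. Ifng and Fasl were called higher and Cd4 and Cd40lg lower, Cd40 higher and Ltb lower, and Cxcr2 higher and Mmp9 lower. With LPS the T or NK sum was mostly Ifng, with a mean of 704 in WT+LPS against 47.2 for Cd4. These sums therefore do not show how the cell types shifted. The part of cell content in the LPS changes was not tested.

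Map2k6, the activator of p38, was 103.49 to 187.28 in WT-LPS with a median of 128.57. In WT+LPS it was 1 to 9.27 with a median of 2.70. All 6 vehicle samples lay well above background and all 6 LPS samples below it, so the fold is a bound. The mean was 134 ± 30.1 (SD, n = 6) without LPS and 3.43 ± 3.09 (SD, n = 6) with it, at least 6.59-fold lower.

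Mapk14 signal ranged from 1468 to 2219 in WT-LPS with a median of 1797. In WT+LPS it ranged from 297 to 457 with a median of 372. Every LPS sample was far below every vehicle sample. The mean dropped from 1815 ± 251 to 376 ± 57.0 (SD, n = 6 each), a log2 change of -2.27 ± 0.22 (SE), or 4.82-fold lower (adjusted p = 2.5e-10). Only 13 of the 202 genes had a lower log2 change.

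Mapkapk2, the main effector kinase, went the other way. It was 1583 to 2028 in WT-LPS with a median of 1907, and 2458 to 3449 in WT+LPS with a median of 2814. The groups did not overlap. The mean was 1867 ± 170 without and 2814 ± 357 with LPS (SD, n = 6 each), a log2 change of 0.59 ± 0.15 (SE; adjusted p = 0.00071). This change was close to the median of all genes (0.47), and its sign depended on how samples were scaled: with equal medians it was -0.33 (adjusted p = 0.041). With equal totals it was 0.19 (adjusted p = 0.087), and with 4 reference genes 1.10.

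Mknk1 was 486 to 690 in WT-LPS with a median of 669, and 209 to 314 in WT+LPS with a median of 241. Its ranges were apart. The mean dropped from 641 ± 77.2 to 246.5 ± 38.9 (SD, n = 6 each), a log2 change of -1.38 ± 0.14 (SE), or 2.60-fold lower (adjusted p = 7.3e-10). Rps6ka5 was 267 to 382 in WT-LPS with a median of 288, and 45.9 to 123 in WT+LPS with a median of 55.9. Again no LPS sample reached a vehicle sample. Its mean dropped from 304 ± 43.4 to 68.7 ± 29.4 (SD, n = 6 each), a log2 change of -2.21 ± 0.30 (SE), or 4.62-fold lower (adjusted p = 1.4e-07).

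Hspb1, the chaperone downstream of Mapkapk2, was 15.1 to 59.9 in WT-LPS with a median of 33.0. In WT+LPS it was 41.2 to 85.0 with a median of 59.1. These ranges overlapped, and 1 vehicle sample was under 20. The mean was 36.9 ± 19.4 without and 60.6 ± 15.8 with LPS (SD, n = 6 each), a log2 change of 0.83 ± 0.37 (SE), or 1.78-fold (adjusted p = 0.039). The call was not firm. It was lost when any of WT+LPS 54, 55 or 56 or WT-LPS 37, 40 or 41 was left out (adjusted p 0.062 to 0.12), and within each run (0.12 to 0.30). It was also lost with equal totals (log2 change 0.44, adjusted p = 0.28) and with 6 reference genes (0.75, adjusted p = 0.059), and with equal medians the value was -0.06 (adjusted p = 0.88).

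**Figure D2:**
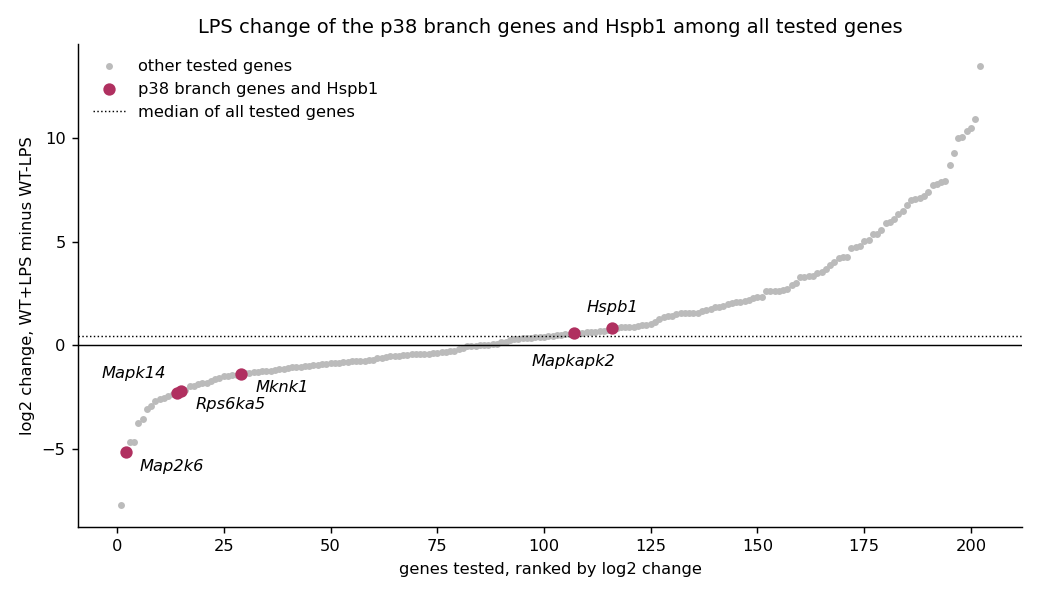
Log2 change from WT-LPS to WT+LPS of the 202 tested genes, ranked from lowest to highest, with the 6 tested genes of the p38 branch and Hspb1 as large points. Mapk14, Rps6ka5 and Mknk1 lie among the 29 lowest changes. Map2k6 is drawn at its fitted value, which rests on signals below background with LPS, and Mapkapk2 and Hspb1 lie close to the median of 0.47 (dotted line).

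The scaling of the samples moved all of these changes together. The reference genes were themselves not level between WT-LPS and WT+LPS. As deposited, the mean went from 7402 to 9799 for Gapdh, 435 to 932 for Hprt and 356 to 1592 for Pgk1. It went from 9009 to 6783 for Cltc, 3040 to 1016 for Gusb and 2888 to 1337 for Tubb5. The median log2 change of all genes was 0.47 as deposited, 0.38 with 6 reference genes, 0.97 with 4 reference genes, 0.07 with equal totals and -0.45 with equal medians. The split of calls moved with it, from 100 higher and 69 lower genes as deposited to 74 higher and 105 lower with equal medians and 120 higher and 43 lower with 4 reference genes. Mapk14 stayed between -3.18 and -1.76 under these 4 other scalings, Rps6ka5 between -3.12 and -1.70 and Mknk1 between -2.29 and -0.87, all past the threshold. In each run alone, too, these 3 genes were past it, with Mapk14 at -2.68, -1.95 and -2.18. Mapkapk2 was 0.68, 0.65 and 0.43 in the 3 runs (adjusted p = 0.054, 0.024 and 0.18).

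**Figure D3:**
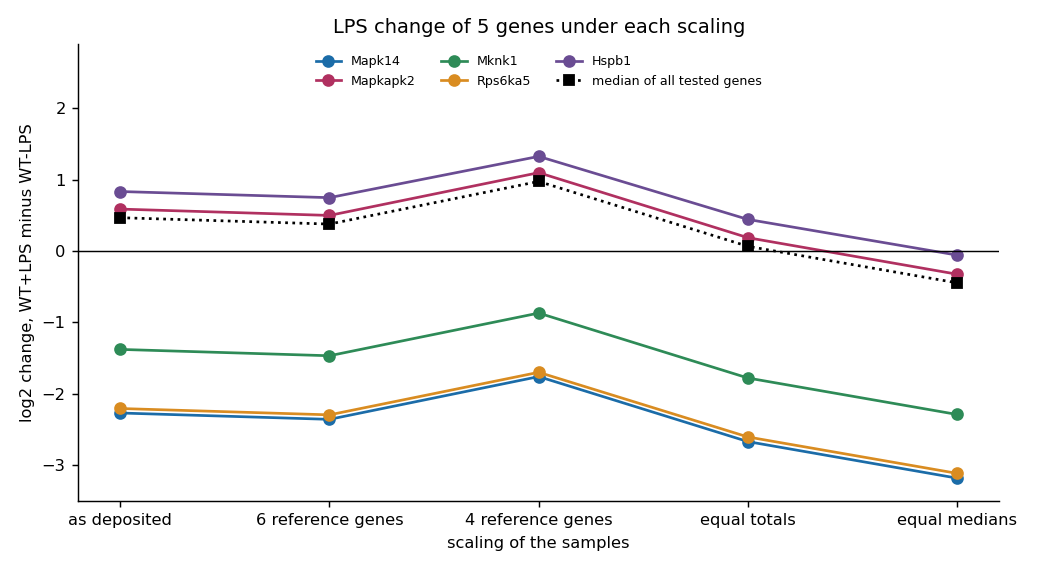
Log2 change from WT-LPS to WT+LPS of 5 genes and the median of all 202 tested genes (black squares) under 5 ways of scaling the samples. Mapk14, Rps6ka5 and Mknk1 stay below 0 throughout, while Mapkapk2 and Hspb1 follow the median and cross 0 with equal medians.

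Ratios of 2 genes within a sample do not depend on scaling, so each gene was also set against Mapk14. Since the probes differ, only the change of such a ratio has a meaning. From WT-LPS to WT+LPS the mean log2 ratio to Mapk14 rose by 2.86 for Mapkapk2, by 0.89 for Mknk1 and by 3.13 for Hspb1, with no overlap between the 6 samples of each group. The ratio of Rps6ka5 to Mapk14 moved by 0.05, and its ranges overlapped. Mapkapk2 and its activating kinase thus changed unequally under every scaling, as did Hspb1 and Mapk14. Mapk14 itself changed by -2.27 and the median gene of the panel by 0.47 on the log2 scale. A gene at that median therefore also rose against Mapk14. The rises of Mapkapk2 and Hspb1 lay near that of such a gene and set neither apart from the panel. How many genes had such ratios with ranges apart was not counted. Within the LPS groups, every ratio range of an exchange overlapped that of WT+LPS.

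As deposited, the other genes of the pathway on the panel moved in both directions after LPS. Over all 202 genes 49.5% were called higher and 34.2% lower in this comparison, so calls in either direction were usual. Of 10 genes upstream of p38, 4 were called higher and 5 lower, with a median log2 change of -0.16. Daxx, an adaptor of Map3k5, rose 6.19-fold (log2 change 2.63 ± 0.13, adjusted p = 1.2e-16), and Rac1, a small GTPase, fell by 0.93 ± 0.09 on the log2 scale (adjusted p = 1.3e-10). Of 9 nuclear substrates, 2 were higher and 4 lower (median -0.28), among the higher ones Max, the partner of Myc (0.87 ± 0.13, adjusted p = 7.8e-07). Of 8 cytokine and enzyme transcripts with AU-rich elements, the class that Mapkapk2 signalling stabilises, all 8 were higher, with a median of 6.55. Il6 was at least 95.8-fold and Ptgs2 at least 224-fold higher. Of 5 genes of the actin branch, in which Hspb1 also acts, all 5 were lower (median -0.86), including Rac1, which counts in 2 of the lists, and Rhoa (-0.86 ± 0.09, adjusted p = 6e-10).

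The sister MAP kinase branches gave a frame for Mapk14. In the ERK branch 1 of 7 genes was higher and 4 were lower: Map2k1, the ERK activator, rose 1.85-fold (log2 change 0.89 ± 0.11, adjusted p = 1.2e-08), while Mapk3, which encodes ERK1, fell by 2.41 ± 0.21 on the log2 scale (adjusted p = 1.7e-11). In the JNK branch the 3 tested of 4 genes were all higher, among them Mapk8, which encodes JNK1 (0.65 ± 0.14, adjusted p = 0.00014), and Jun (2.19 ± 0.18, adjusted p = 6.2e-12). Map2k4, an activator of JNK and p38 that counts in 2 of these lists, was among those called higher. As deposited, Mapk14 was thus lower, while the activator and kinase of the JNK branch were both higher. In the ERK branch the activator was higher and Mapk3 lower. The rises of Mapk8 (0.65) and Map2k1 (0.89) lay near the median of all genes (0.47), as that of Mapkapk2 did. The signs of Mapk8, Map2k4 and Map2k1 may therefore depend on the scaling, and their values under other scalings are not given here. Map2k6, the p38 activator, is left out of this contrast, since the filter fixed its lower signal. These lists are short, and over all genes 49.5% were called higher and 34.2% lower, so such calls were usual. Whether the branches differ as groups was not tested.

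Under LPS, 1 difference between an exchange group and wild type passed the test among these genes, that of Hspb1 in Reversa. Against WT+LPS, none of the 6 tested genes was called in COX-1>COX-2 or in COX-2>COX-1 by limma, and none had an unadjusted p under 0.05. Over all genes 0.990% were called in each of these comparisons, so no call among 6 genes is the usual outcome. In Reversa 1 of 6 was called, Hspb1, against 8.42% of all genes in either direction and 1.49% higher. The ranges of all 6 overlapped those of WT+LPS in each exchange, where 1.49% of all genes had ranges apart in either single exchange and 4.95% in Reversa.

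Mapk14 was 270 to 717 in COX-1>COX-2 with a median of 425, 265 to 394 in COX-2>COX-1 with a median of 321, and in Reversa 484, 616, 478, 398 and 283 in samples 51, 52, 53, 54 and the mean of 55 and 56. All of these ranges overlapped the 297 to 457 of WT+LPS. The log2 changes against WT+LPS were 0.22 (95% interval -0.24 to 0.67), -0.22 (-0.67 to 0.23) and 0.23 (-0.24 to 0.71), with adjusted p = 0.77, 0.77 and 0.59. An effect of up to 1.59-fold higher in COX-1>COX-2 and 1.63-fold higher in Reversa lies within these intervals.

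Mapkapk2 was 1921 to 3500 in COX-1>COX-2 with a median of 2676, and 2601 to 3764 in COX-2>COX-1 with a median of 2837. In Reversa samples 51 to 54 it was 2058, 2076, 2390 and 2744, and 3385 in the mean of 55 and 56. Each group overlapped WT+LPS. Its log2 changes were -0.06 (95% interval -0.36 to 0.24), 0.13 (-0.18 to 0.43) and -0.17 (-0.49 to 0.15), with adjusted p = 0.91, 0.83 and 0.55.

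Mknk1 and Rps6ka5 also overlapped WT+LPS in every exchange group. Mknk1 had group means of 291 ± 42.8, 235 ± 14.4 and 277 ± 72.3 (SD, n = 6, 6 and 5) in COX-1>COX-2, COX-2>COX-1 and Reversa. Its log2 changes were 0.24, -0.06 and 0.14 (adjusted p = 0.57, 0.94 and 0.62). Between COX-1>COX-2 and COX-2>COX-1, where 5.94% of all genes were called, Mknk1 differed by 0.30 ± 0.14 (SE; unadjusted p = 0.045, adjusted p = 0.20). With equal totals that difference was 0.56 and passed the threshold (adjusted p = 0.047). Rps6ka5 had means of 71.5 ± 31.9, 77.8 ± 23.1 and 74.9 ± 31.6, with log2 changes of 0.03, 0.22 and 0.07 (adjusted p = 0.98, 0.89 and 0.90). Map2k6 was below 20 in all 17 exchange samples, with a highest signal of 10.31, so its differences among the LPS groups were not detectable at this depth.

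Hspb1 was the 1 gene called, in Reversa. It was 45.2 to 92.1 in COX-1>COX-2 with a median of 66.7, and 28.6 to 124 in COX-2>COX-1 with a median of 74.1. In Reversa it was 328, 229 and 213 in samples 51, 52 and 53, 80.9 in sample 54, and 80.5 and 94.4 in samples 55 and 56. Samples 51, 52 and 53 were above every sample of the other 4 groups. Sample 54 and the mean of 55 and 56 lay within or just above the WT+LPS range of 41.2 to 85.0, so the groups overlapped.

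The Reversa mean of Hspb1 was 188 ± 104 (SD, n = 5) against 60.6 ± 15.8 (SD, n = 6) in WT+LPS, a log2 change of 1.45 ± 0.39 (SE; 95% interval 0.66 to 2.24), or 2.73-fold higher (adjusted p = 0.016). It had the fourth highest log2 change of the 202 genes. Against COX-2>COX-1, where 10.9% of all genes were called and 5.45% were higher, Reversa was 1.31 ± 0.39 higher on the log2 scale (adjusted p = 0.032). Against COX-1>COX-2, where 1.49% were called, it was 1.27 ± 0.39 higher and missed the threshold (adjusted p = 0.061). Whether Reversa differed from the sum of both single exchanges was tested by an interaction term, which gave 1.13 ± 0.53 (SE; limma, adjusted p = 0.50). No gene of the 6 passed that test, against 1.98% of all genes.

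The higher Hspb1 signal rested on few animals. Without Reversa 51 the log2 change against WT+LPS was 1.20 (adjusted p = 0.067), while without any other single sample it stayed past the threshold. Within runs 1, 2 and 3 it was 2.40, 1.32 and 0.18 (adjusted p = 0.064, 0.24 and 0.83), and run 3 holds only the averaged Reversa sample. Against COX-2>COX-1 the call was lost without Reversa 51, 52 or 53 and without COX-2>COX-1 53, 54 or 56 (adjusted p 0.053 to 0.087), and with only those groups in the fit (0.13). Across the 4 other scalings the change against WT+LPS was 1.42 to 1.64 and always past the threshold.

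**Figure D4:**
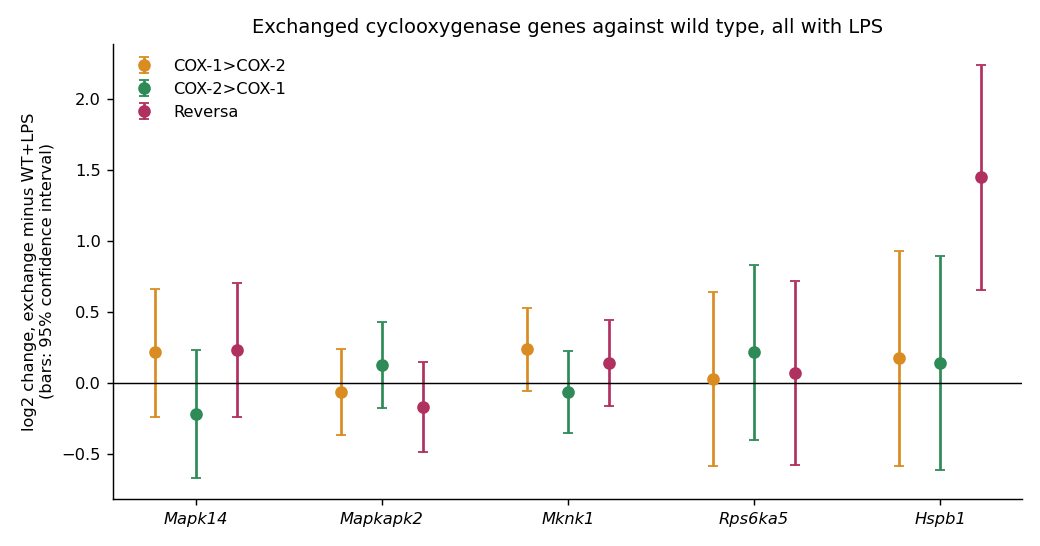
Log2 change against WT+LPS of 5 genes in the 3 exchange groups, with 95% confidence intervals from the fit. Intervals span 0 for Mapk14, Mapkapk2, Mknk1 and Rps6ka5 in every group, and the Hspb1 interval of Reversa, 0.66 to 2.24, lies above 0.

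The Reversa samples with high Hspb1 also stood apart in other genes of the branch and in cell markers. Samples 51, 52 and 53 had the 3 highest Mapk14 signals (484, 616 and 478), the 3 highest Rps6ka5 signals (85.5, 110 and 88.2) and the 3 lowest Mapkapk2 signals of their group. Their summed macrophage markers were the lowest of the group, at 17788, 32515 and 25411, against 35878 in sample 54 and 42094 and 42668 in samples 55 and 56. Of the 8 macrophage markers, 3 (C1qa, C1qb and Trem2) were called lower in Reversa than in WT+LPS. The sums of 2 mast cell or eosinophil markers, Il5 and Il13, were 125, 223 and 103 in samples 51, 52 and 53 against 71.3, 48.5 and 42.7 in 54, 55 and 56, and 5.76 to 57.7 in WT+LPS, and both genes were called higher in Reversa. The sums of 4 T or NK cell markers were 626, 779 and 438 against 242 to 298 in samples 54 to 56, and those of 2 B cell markers 4707, 3479 and 3901 against 2785 to 3169. The 2 neutrophil markers summed to 17.2, 76.7 and 143 against 161 to 309. The part of these markers in the Hspb1 signal was not tested.

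A like spread ran through COX-1>COX-2. Samples 33, 57 and 58 had Mapk14 signals of 717, 534 and 705, against 270 to 316 in samples 55, 59 and 60, with nothing in between. They also had the 3 highest Rps6ka5 signals, 74.3, 111.5 and 108, and the 3 lowest Mapkapk2 signals, 1921, 2418 and 2369. Their macrophage marker sums, 25046, 34488 and 37147, were below the 50677 to 54392 of the others. Hspb1 did not follow here: sample 33 had the lowest value of the group, 45.2, and sample 57 the highest, 92.1. The SD of log2 Mapk14 was 0.66 in COX-1>COX-2 against 0.22 in WT+LPS. The part of cell content in this spread was not tested.

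**Figure D5:**
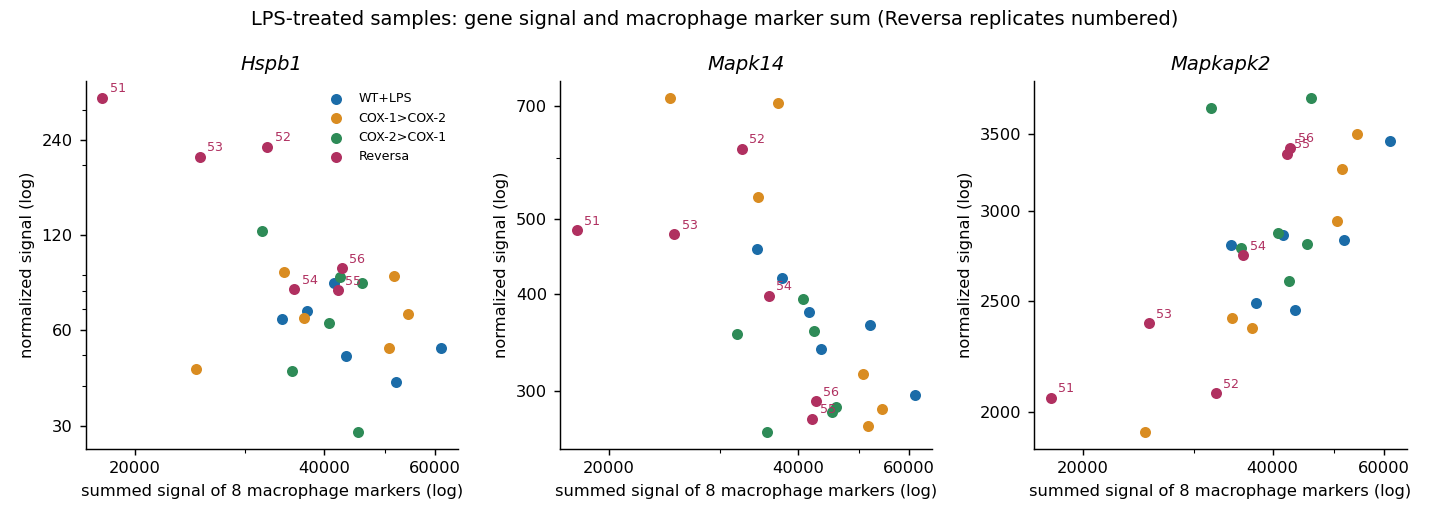
Signal of Hspb1, Mapk14 and Mapkapk2 against the summed signal of 8 macrophage markers in each LPS-treated sample (log axes), with the 6 Reversa samples numbered. Reversa 51, 52 and 53 combine the highest Hspb1 signals with marker sums of at most 32515, and the 3 lowest Mapkapk2 signals, at most 2076, also belong to samples with sums of at most 32515.

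The other genes of the pathway were read in the same comparisons, where 0.990%, 0.990% and 8.42% of all genes were called in COX-1>COX-2, COX-2>COX-1 and Reversa. Against WT+LPS no gene of the upstream, ERK or JNK lists was called in any exchange, and at those shares lists of this size are expected to hold few calls or none. Of the nuclear substrates Mef2a, a transcription factor activated by p38, was 2.80-fold lower in COX-2>COX-1 (100 ± 43.1 against 263 ± 34.1, SD, n = 6 each, adjusted p = 0.00031). It was also the 1 gene of these lists, beside Ptgs2 and Csf2, with an interaction past the threshold (1.62 ± 0.37, adjusted p = 0.01). Of the actin branch Limk1, a kinase that inactivates cofilin, was 1.56-fold higher in COX-1>COX-2 (369 ± 78.0 against 233 ± 24.1, SD, n = 6 each, adjusted p = 0.011). Both genes are named because they were the only called ones of their lists, after their values were seen. Of the AU-rich transcripts only Ptgs2, itself exchanged, was called against WT+LPS. It was lower in Reversa and in COX-1>COX-2.

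Each exchange group was also compared with vehicle. Leaving aside Map2k6, the 5 other tested genes were called in each, 3 lower (Mapk14, Mknk1 and Rps6ka5) and 2 higher (Mapkapk2 and Hspb1), where 80.2%, 85.1% and 81.7% of all genes were called. Higher genes made up 47.0%, 51.0% and 47.5% of all genes and lower genes 33.2%, 34.2% and 34.2%. These comparisons and that of WT+LPS share their WT-LPS samples, so their values stand side by side and not as separate evidence. Mapk14 was at -2.06, -2.49 and -2.04 on the log2 scale, Mknk1 at -1.14, -1.44 and -1.24 and Rps6ka5 at -2.18, -1.99 and -2.14. Mapkapk2 was at 0.53, 0.71 and 0.42, with a sign that turned under equal medians, and Hspb1 at 1.008, 0.98 and 2.28. The Mapkapk2 change in Reversa was past the threshold, whatever its sign, under only 2 of the 4 other scalings. It was past it in 28 of 29 fits with a sample left out. In single runs Mapkapk2 passed in 1 of 3 for COX-1>COX-2, in 2 of 3 for COX-2>COX-1 and in 0 of 3 for Reversa. The Hspb1 calls of both single exchanges were lost with equal medians (0.23, adjusted p = 0.54, and 0.08, adjusted p = 0.84), with equal totals (0.79, adjusted p = 0.056, and 0.50, adjusted p = 0.22), in every run alone for COX-1>COX-2 and in runs 2 and 3 alone for COX-2>COX-1. In the order of mean levels, WT-LPS was the highest group for Mapk14, Mknk1 and Rps6ka5 and the lowest for Mapkapk2. In each case its range did not overlap that of the group next to it, though COX-1>COX-2 reached into the WT-LPS range for Mapkapk2. Ranges apart were usual, at 72.3% of all genes between WT+LPS and WT-LPS. Map2k6 was also highest in WT-LPS, which the filter had fixed. Within the LPS groups, neighbours in that order overlapped for every gene. For Hspb1 the order from the top was Reversa, COX-2>COX-1, then COX-1>COX-2, WT+LPS and WT-LPS, with overlap at every step.

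For each tested gene the panel gene with the closest profile was found by the root mean square difference of centred log2 signals over the 29 samples. The partner of Mapk14 was Mapk3, at 0.33 on the log2 scale, and that of Rps6ka5 was Map3k1, a kinase upstream of JNK and p38, at 0.34. Mapkapk2 was closest to Il1rap, a subunit of the interleukin 1 receptor, at 0.17, and Mknk1 to Nfatc3, a transcription factor, at 0.21. Map2k6 was closest to Ccr2, a chemokine receptor, at 0.86, and Hspb1 to C2, a complement protease, at 0.67. The Map2k6 spread of 2.135 holds the step from WT-LPS to signals below background with LPS, which the filter fixed. Its match therefore says little about variation among the LPS samples. The Hspb1 difference is large beside its own spread of 0.93, so no gene of the panel tracked it closely, while Mapk14 had a spread of 0.98. These are descriptions over samples that share groups and scaling.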

How the data were processed

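The nCounter assay counts barcoded probes bound to RNA, with no amplification step. The authors deposited a signal per gene and sample, and its computation from counts is not given in the sources read. The values show a lane background taken off with a floor of 1, then scaling to an equal geometric mean of Cltc and Gapdh (8147.9). After that step they are no whole counts, so no count test was run. The 266 rows shared by both tables were equal. Of 240 negative control values 1 exceeded 20.

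Groups came from the labels. Genes above 20 in at least 6 samples were tested on log2(signal + 1) with limma (version 3.58.1, R version 4.3.3), in 1 fit with 5 group means over 29 samples. The tests were two-sided, with Benjamini-Hochberg adjustment over 202 genes, a threshold of 0.05 and 11 comparisons. This scale understates the fold of low genes. A bound ("at least") sets values under 20 to 20. The gene names followed a rule: the 7 genes everywhere, and the 2 genes of smallest p after LPS per list, of which 1 is not reported here. The 7 genes and the lists were chosen with earlier results of these data known. Same-numbered samples did not deviate together (correlation over 0.1 in 4 of 16 pairs, range -0.352 to 0.227). The labels describe separate mice, without saying more, so p-values measure the spread between these samples. The fit was checked on simulated data. Alternatives were 4 scalings, no filter, a pseudocount of 10, only the groups compared, run as block or alone, samples left out and a replicate block. Further ones kept Reversa 55 and 56 apart or let the prior variance of limma follow a trend. Python 3.11.15 was used for summaries and promoter searches.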

Additional observations from a re-analysis of the deposited data

Results flagged for a closer look

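The lowest Mknk1 signal in WT-LPS, 486 in sample 40, stood apart from the other 5, with a gap of 0.81 of the group's range. Of 26 sets of samples checked in this way, 1 stood out, where chance gives about 1 in 20.

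The effect on Hspb1 against WT+LPS differed between Reversa and COX-2>COX-1, by 1.31 on the log2 scale (adjusted p = 0.032). Every Reversa sample was above 80, and COX-2>COX-1 samples ran from 28.6 to 124.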

How the results depend on the processing

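Counts here are of the 6 tested genes of the branch. Over all alternatives 415 counts were equal to those reported, 30 changed by at most 1.5 times and 20 by more, or to or from 0. In WT+LPS against WT-LPS the count of 6, Map2k6 included, was 4 or 5 in 13 of 42 settings. Of 1094 values of called log2 changes, 1038 kept call and direction, 51 lost the call and 5 turned. The kept values include those of Map2k6, past the threshold in all 42 settings of each comparison with WT-LPS. The filter had fixed that difference, so the Map2k6 values do not show how firm the calls are. Of 1696 values of changes not called, 5 gained a call and 127 turned sign. The 5 turns of called changes all came with equal medians: against WT-LPS, Mapkapk2 was then -0.33 (WT+LPS), -0.28 (COX-1>COX-2), -0.21 (COX-2>COX-1) and -0.40 (Reversa), and Hspb1 was -0.058 (WT+LPS). That scaling moved the median of all genes after LPS from 0.47 to -0.45. The number of these 6 genes called in Reversa against WT+LPS was 1, and 0 within run 1, run 2 and run 3 alone, where fewer samples enter. It ranged from 0 to 1 when single samples were left out, with 0 without Reversa 51. In Reversa against COX-2>COX-1 it was 1, and 0 with only the groups compared, 0 within each run and 0 to 1 with single samples left out. In Reversa against COX-1>COX-2 it was 0, and 1 (Hspb1) with a pseudocount of 10, and 0 to 1 with single samples left out, being 1 without COX-2>COX-1 52, Reversa 54 or Reversa 55 and 56. Between the single exchanges it was 0, and 1 (Mknk1) with equal totals. The causes of the other shifts were not tested.

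A replicate block was possible among WT+LPS, COX-2>COX-1 and Reversa. It gave 1 called gene in Reversa against WT+LPS (Hspb1, log2 change 1.498, adjusted p = 0.048), 0 in COX-2>COX-1 against WT+LPS, and 0 in Reversa against COX-2>COX-1 (Hspb1 1.36, adjusted p = 0.069). The numbers did not pair the samples. Signals near 20, as for Hspb1 in WT-LPS, and below it, as for Mapkapk5 and, with LPS, Map2k6, limit what these data can resolve.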
